A study of Mus musculus with 16 samples.

Results

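The signals of 10 genes of the immediate early response were described in whole lungs of mice that lack T1α and of wild type mice: the zinc finger factors Egr1 and Egr2, the orphan nuclear receptors Nr4a1 and Nr4a2, the Krüppel-like factors Klf2, Klf3, Klf4 and Klf6, and the early response genes Ier2 and Ier3. They were taken as the probe sets of the array that the platform's annotation pairs with exactly 1 symbol, where that symbol was 1 of the 10. This gave 14 of the 12422 probe sets that are no controls, with 2 probe sets each for Egr1, Nr4a2, Klf3 and Klf4, among 8251 genes named this way. The genes were selected on signals of these same arrays, since earlier results had shown Egr1 and Nr4a1 lower on the term arrays of mice without T1α. Every value of these genes that rests on the term arrays is therefore a description. How many of them passed the threshold of a fit over all probe sets is printed there beside the share of all probe sets that passed, nothing is read from it, and p-values of the genes are given for the genotype comparison before birth only.

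T1α is the gene Pdpn, which encodes podoplanin, a membrane glycoprotein of the flat type I cells of the alveolus. T1α(-/-) lungs carried 2 copies of a null allele that the earlier work of the study made by gene targeting in all cells, and T1α(+/+) lungs were wild type; both came from matings of heterozygous parents. Labelled cRNA made from total RNA was hybridised to 16 Affymetrix U74Av2 arrays, 1 for each lung sample: fetal lungs at E18.5, 5 null (arrays A to E) and 5 wild type (arrays I to M), and lungs of pups just after normal delivery, called term, 3 null (arrays F to H) and 3 wild type (arrays N to P). Strain, litter, sex and scan order of these lungs are not given in the sources used here, so p-values measure the spread between these arrays only. The deposited value is the signal, a background-corrected brightness per probe set that the authors scaled on each array.

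The null label was checked on T1α itself, whose probe set gave 13.5 ± 8.34 (SD, n = 5) in (-/-) and 109.5 ± 29.2 (n = 5) in (+/+) lungs at E18.5, and 15.9 ± 12.2 (n = 3) and 114 ± 90.4 (n = 3) at term, without overlap at either time. Lung epithelium markers, 6 of 8 on the array, summed to 11259.4 to 32907.2 over the 16 arrays, none at 0. The ratio of the 3′ to the 5′ GAPDH signal, a sign of RNA quality, was 0.961 to 1.72 at E18.5. At term it was 1.11, 2.63 and 0.827 on F, G and H, and 1.84, 2.55 and 0.853 on N, O and P, so that G, N and O stood apart. E18.5 (+/+) replicate I had the highest mean signal of the bacterial probe sets that received no spike, 35.3 against 3.58 to 11.1 on the other 15 arrays. In whole lung, fewer cells of a type and less RNA per cell cannot be told apart.

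Immediate early genes are transcribed within minutes of a stimulus such as serum, stretch, hypoxia or an adrenergic signal, from factors already present in the cell, and most of their mRNAs are short-lived. Egr proteins bind GC-rich sites and are restrained by the corepressors Nab1 and Nab2. Nr4a receptors act without a known natural ligand, and their activity depends in part on their amount. Klf2 is a shear-responsive factor of endothelium, needed for normal lung and vessel development, and Klf4 and Klf6 act in epithelium, endothelium and after injury. Ier2 is a nuclear protein and Ier3 a stress protein that acts on survival and ERK signalling.

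The sequence just before the start site of these genes is among the places where such stimuli can act, and the genes differ in the elements it holds. RefSeq start sites of the assembly GRCm38.p6 gave 12 windows of 250 bases for 8 of the 10 genes, 5 of them for Egr2, among 32851 windows of all genes; Egr1 and Ier2 had no entry. The stretches below show 1 element of interest for each of 4 genes, read 5′ to 3′ on the strand of the gene, with that element in capitals. For Nr4a1 (chr15:101266596-101266845, plus strand) it is TGCGTCA, a motif like the cyclic AMP and AP-1 elements, and for Klf4 (chr4:55532476-55532725, minus strand) it is GCGNGGGCG, the site that Egr proteins bind, which lies here on the opposite strand. For Klf2 (chr8:72318812-72319061, plus strand) it is a MEF2 box. For Egr2 the 30 bases around each of 2 CArG boxes, the site of serum response factor, are given (chr10:67537484-67537513 and chr10:67537787-67537816, plus strand).

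Nr4a1: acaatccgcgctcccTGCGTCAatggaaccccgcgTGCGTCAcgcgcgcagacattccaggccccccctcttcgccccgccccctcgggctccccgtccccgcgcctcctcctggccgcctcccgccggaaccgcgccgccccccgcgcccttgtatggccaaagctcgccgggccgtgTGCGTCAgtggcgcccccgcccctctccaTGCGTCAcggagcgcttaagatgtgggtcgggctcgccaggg

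Klf4: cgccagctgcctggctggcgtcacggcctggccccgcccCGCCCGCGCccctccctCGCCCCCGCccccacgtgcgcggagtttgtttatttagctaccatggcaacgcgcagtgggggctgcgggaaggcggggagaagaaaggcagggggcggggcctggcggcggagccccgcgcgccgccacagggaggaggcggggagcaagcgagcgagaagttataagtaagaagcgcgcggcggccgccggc

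Klf2: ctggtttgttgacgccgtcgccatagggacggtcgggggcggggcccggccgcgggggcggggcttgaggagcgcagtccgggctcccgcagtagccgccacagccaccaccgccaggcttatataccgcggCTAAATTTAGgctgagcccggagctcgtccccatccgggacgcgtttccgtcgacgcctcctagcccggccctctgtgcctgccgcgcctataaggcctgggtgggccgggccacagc

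Egr2, the box at the lower coordinate: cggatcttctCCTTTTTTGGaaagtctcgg

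Egr2, the box at the higher coordinate: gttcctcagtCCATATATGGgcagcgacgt

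TGCGTCA was found on either strand in 1.75% of all windows, and 4 or more copies in 1 of the 32851, that of Nr4a1. Its copies began 235, 215, 71 and 42 bases before the start. A CArG box was present in 1.47% of windows and, among the 8 genes, for Egr2 only; a MEF2 box was present in 0.508% and for Klf2 only. GCGNGGGCG was present in 4.7% of windows and for 5 of the 8 genes, Nr4a1, Nr4a2, Klf2, Klf3 and Klf4, with 3 copies for Klf3, where 2 of them overlap, and 2 for Klf4. GGGCGG, the GC box that Sp and Klf proteins bind, was present in 32.7% of windows and for all 8 genes, and a match to it can overlap one to GCGNGGGCG. TGACGTCA, the full cyclic AMP element, was in 1.55% of windows and for none of the 8, and TATAAA was in 12.4% and for Nr4a2 only. These are matches of letters, and no binding was measured.

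**Figure D1:**
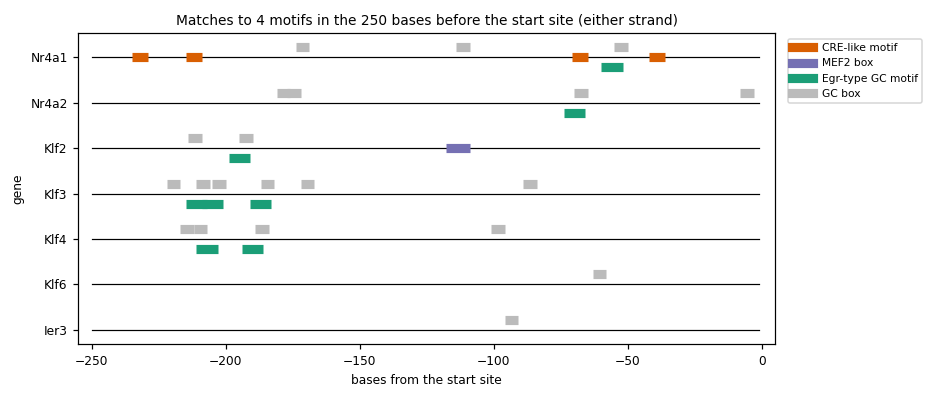
Positions of 4 motifs (coloured blocks, either strand) along the 250 bases before the RefSeq start site (horizontal axis, bases from the start) of 7 of the genes (rows). Nr4a1 holds 4 CRE-like motifs, Klf2 the MEF2 box, Klf3 3 and Klf4 2 Egr-type motifs; Egr2, with its 5 windows, is not drawn.

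Egr1 stood near the same level in 3 of the 4 groups and higher in the term (+/+) group. Its main probe set gave 48.7, 33.2, 55.7, 42.4 and 29 on E18.5 (+/+) replicates I to M and 44.1, 16.5, 55.8, 96.3 and 52.3 on (-/-) replicates A to E. At term the signals were 242.5, 262.5 and 174.5 on (+/+) N, O and P, and 30.9, 116.7 and 43.5 on (-/-) F, G and H. Every term (+/+) array lay above every other array, and among the term (-/-) arrays G lay highest, while F and H lay inside the E18.5 range. The other Egr1 probe set stayed at 1.4 to 24.7 on all arrays. Egr2, the relative of Egr1 best known from myelin and immune cells, was 18.8 to 62.0 at E18.5, 34.5, 49.7 and 39 on F, G and H, and 57.4, 83.7 and 40.6 on N, O and P. Its groups overlapped in every comparison.

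Nr4a1 was low before birth and higher at term in both genotypes. Its signals at E18.5 were 44, 31.1, 81, 43.2 and 74.2 in (+/+) and 3.4, 32.2, 34.6, 31.3 and 36 in (-/-) lungs. At term they were 785.9, 1081.6 and 717.1 on N, O and P, and 133.6, 355.1 and 605 on F, G and H. All term arrays lay above all E18.5 arrays, and all term (+/+) arrays above all term (-/-) arrays. Nr4a2 stayed low everywhere, at 2.1 to 31.2 on its main probe set and 3.6 to 74.6 on the other, and no group separated from another.

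Klf2 and Klf4 were higher at term in both genotypes. Klf2 was 5.7 to 33.5 in (+/+) and 4.7 to 13.0 in (-/-) lungs at E18.5, then 105.8, 112.6 and 41.3 on N, O and P, and 44.1, 72.8 and 66 on F, G and H. Klf4 was 67.9 to 146.5 and 64.3 to 141.6 at E18.5, then 821.7, 491.1 and 206.3 on N, O and P, and 181.9, 290.1 and 281.9 on F, G and H. For both genes the term (+/+) arrays N and O lay above all (-/-) arrays and P lay among or below them, so the genotypes overlapped. The other Klf4 probe set stayed at 0.1 to 19.1 and carried no sign of this.

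Klf6, which is induced by injury and acts on TGF-β signalling, was 75.9, 81.7, 115, 267.5 and 269.8 on I to M and 110.2, 194.9, 310.7, 287.5 and 336.7 on A to E. At term it was 507.6, 411.9 and 768 on N, O and P, and 492.9, 450.8 and 558.2 on F, G and H. The term arrays lay above all E18.5 arrays, with the (-/-) arrays inside the (+/+) range. Klf3, mostly a repressor, moved the other way on its main probe set, from 69.6 to 118.9 at E18.5 to 53.8 to 73.3 at term. Its other probe set, at 59.1 to 142.8, showed no such shift.

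Ier2 was 198.2, 226.3, 368.1, 228.1 and 321.3 on I to M and 328.9, 321.5, 290.8, 344.4 and 318.9 on A to E. At term it was 2269.9, 2160.1 and 1274.2 on N, O and P, and 863.8, 1869.2 and 947.1 on F, G and H. All term arrays lay above all E18.5 arrays, and G lay above P, so that the genotypes overlapped at term. Ier3 was 373.9, 437.7, 2132.2, 618.8 and 404 on I to M, and 643.2, 664.3, 1037.1, 496.6 and 482.7 on A to E. At term it was 503.6, 1660.3 and 1775.5 on N, O and P, and 1013, 1516.2 and 1347.9 on F, G and H. Array K at E18.5 was the highest of all 16 for Ier3, and N lay among the E18.5 arrays.

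**Figure D2:**
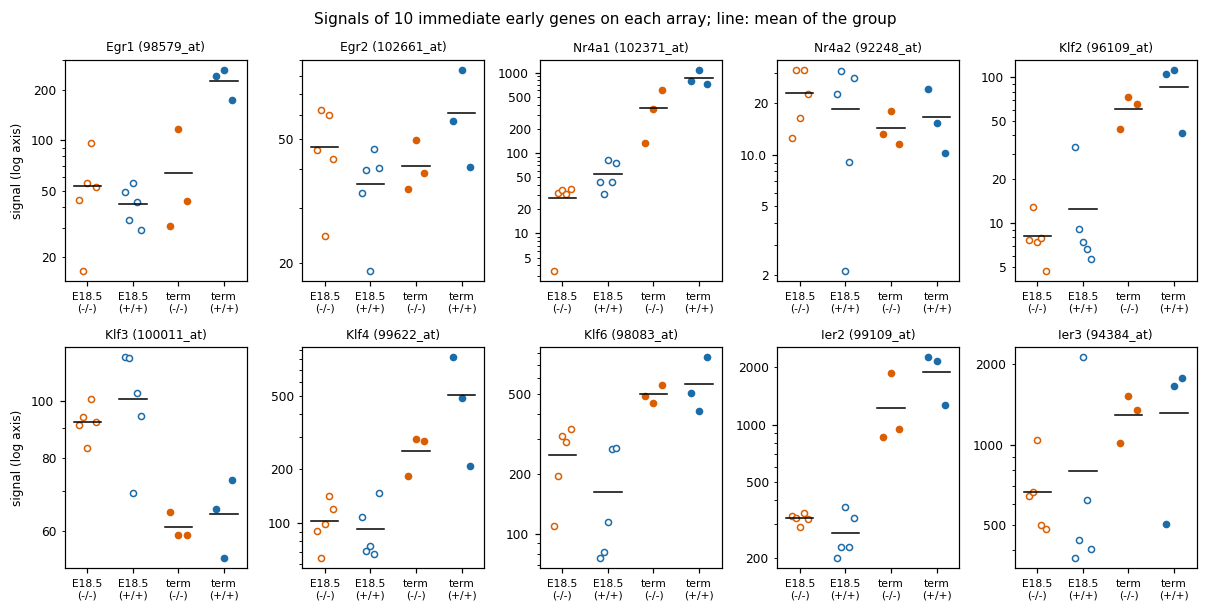
Signal (log axis) on each array for the probe set of highest mean of each gene, by group; open circles are E18.5, filled circles term, orange T1α(-/-), blue T1α(+/+), and the line is the mean of the group (5 arrays at E18.5, 3 at term). Egr1 on the 3 term (+/+) arrays, at 174.5 to 262.5, lies above all other arrays.

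Before birth, the 10 genes gave no call between the genotypes. limma on log2(signal + 16) tested 6 of the 14 probe sets, those above the signal filter (for Klf3 2, for Klf4, Klf6, Ier2 and Ier3 1 each), and 0 passed an adjusted p of 0.05, with 0 at an unadjusted p under 0.05 and 0 by the methods' t-test. Over all probe sets tested, 2 of 5825 passed, which is 0.0343%, and the arrays of the genotypes did not overlap for 66, or 1.13%. None of the 14 probe sets separated the genotypes. The largest difference among the 6 was that of Klf6, 0.66 ± 0.36 higher in (-/-) lungs (SE, log2; limma adjusted p = 0.864), with a 95% interval of -0.17 to 1.48. For Ier2 the difference was 0.28 ± 0.20 (limma adjusted p = 0.884, interval -0.17 to 0.73). Klf4, the main Klf3 probe set and Ier3 differed by 0.14, -0.09 and 0.05, with intervals of -0.41 to 0.68, -0.52 to 0.33 and -0.85 to 0.95.

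Egr1, Egr2, Nr4a1, Nr4a2 and Klf2 were below the filter at E18.5 and were compared with an exact permutation test, two-sided, which 5 arrays against 5 cannot take below 0.00794. Nr4a1 was lower in (-/-) lungs, at 27.5 ± 13.6 against 54.7 ± 21.6, a difference of -0.73 on the log2 scale (exact permutation p = 0.0397, unadjusted for the 14 probe sets compared). Without array A, whose Nr4a1 signal was 3.4, the difference was -0.46 (exact permutation p = 0.103), and without I, K, L or M in turn the p was 0.0635 to 0.0952. Without B, C, D or E in turn the exact permutation p stayed at 0.0397, and without J it was 0.00794 (difference -0.86). In limma without a filter the adjusted p of Nr4a1 was 0.988. The other 13 probe sets had exact permutation p of 0.0635 to 0.929, with 0.595 for Egr1, 0.262 for Egr2, 0.444 for Nr4a2 and 0.675 for Klf2.

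At term, the signals of Egr1 and Nr4a1 on all 3 (-/-) arrays lay below those of all 3 (+/+) arrays, the mean by 3.56 times for Egr1 (63.7 ± 46.3 against 226 ± 46.1) and by 2.36 times for Nr4a1 (365 ± 236 against 862 ± 194, SD, n = 3 each). On the log2(signal + 16) scale these differences were -1.74 ± 0.36 and -1.41 ± 0.46 (SE). Klf4 followed at -0.80 ± 0.44 and Ier2 at -0.67 ± 0.35, both with overlap. Egr2 was at -0.39 ± 0.26, Klf2 at -0.35 ± 0.33, Klf6 at -0.12 ± 0.28, Klf3 at -0.05 ± 0.21 and Ier3 at 0.15 ± 0.44. Of the 10 probe sets above the filter, 9 had a difference below 0, with a median of -0.37 against 0.01 over all 5831 tested. Egr1 and Egr2 passed the filter only through the (+/+) group. Counted from the lowest difference of the 5831, Egr1 stood in place 3, Nr4a1 in 6, Klf4 in 30 and Ier2 in 48. Since the term arrays chose these genes, nothing is read from these places, the median or the count below 0.

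None of the 10 passed an adjusted p of 0.05 in limma, by which 0 of 5831 probe sets (0%) passed in this comparison. All (-/-) arrays lay below all (+/+) arrays for 111 of the 5831, or 1.9%, Egr1 and Nr4a1 among them, and nothing follows from that count since the term arrays chose these genes. Leaving out 1 array at a time gave -2.18 to -1.43 for Egr1 and -1.87 (without H) to -0.85 (without F) for Nr4a1. For Klf4 the range was -1.31 without P to -0.36 without N, for Ier2 -1.01 without G to -0.46 without F, for Egr2 -0.59 without P to -0.18 without O, and for Klf2 -0.72 without P to -0.14 without O. The smaller differences turned sign: Klf6 ran from -0.32 without O to 0.12 without P, Klf3 from -0.15 without O to 0.03 without P, and Ier3 from -0.43 without N to 0.47 without P.

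**Figure D3:**
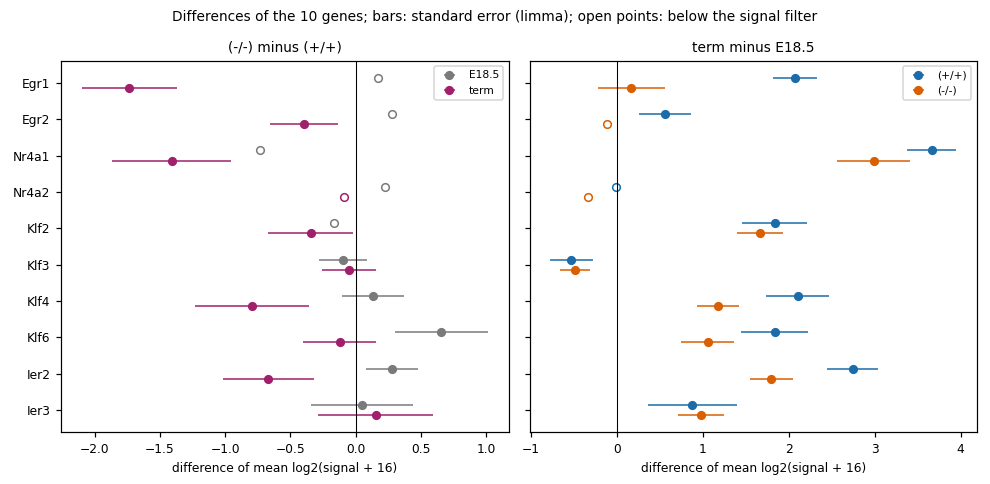
Difference of mean log2(signal + 16) of each gene (rows) between the genotypes, (-/-) minus (+/+), at E18.5 and term (left) and between term and E18.5 in each genotype (right). Bars are the standard error of limma, and open points are genes below the signal filter, drawn without error; Egr1 at term is -1.74 ± 0.36 and Nr4a1 over time in (+/+) lungs 3.67 ± 0.29.

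Between E18.5 and term, Nr4a1, Ier2, Klf4, Klf2 and Klf6 were higher in both genotypes, Egr1 reached the threshold in (+/+) lungs and Ier3 in (-/-) lungs. In (+/+) lungs Nr4a1 was higher by 15.8 times (3.67 ± 0.29, log2), Ier2 by 7.08 times (2.74 ± 0.30), Klf4 by 5.41 times (2.10 ± 0.37), Egr1 by 5.42 times (2.07 ± 0.26), Klf2 by 1.84 ± 0.38 on the log2 scale and Klf6 by 3.47 times (1.84 ± 0.39). These 6 of the 10 probe sets above the filter passed an adjusted p of 0.05 in limma, where 10.7% of 6097 did so upward, and their term arrays lay above all E18.5 arrays, as for 12.9% of the 6097. Of these 6, Egr1, Nr4a1 and Klf2 passed the filter only through the term group, where they are high, so the count is no result. No ratio is given for Klf2, since most of its E18.5 signals lay in the range of the unspiked bacterial probe sets, 3.58 to 11.1, and the highest of them, 33.5, was on array I. The main probe set of Klf3 was at -0.53 ± 0.25, Ier3 at 0.87 ± 0.52 and Egr2 at 0.55 ± 0.30, and these did not pass. Egr2 also passed the filter through the term group alone. The count over all probe sets rested on array N, without which 3.67% of all passed upward and, of the 10 genes, 5, Klf2 being lost.

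In (-/-) lungs the change by term was 2.99 ± 0.42 for Nr4a1 (13.3 times), 1.80 ± 0.25 for Ier2 (3.82 times), 1.66 ± 0.27 for Klf2, 1.17 ± 0.25 for Klf4 (2.43 times), 1.06 ± 0.31 for Klf6 (2.02 times) and 0.98 ± 0.26 for Ier3 (1.94 times). These 6 of 9 probe sets above the filter passed, where 13.8% of 6145 did so upward. Nr4a1 and Klf2 had passed the filter only through the term group and Egr1 only through the E18.5 group, so this count is no result either. All term arrays lay above all E18.5 arrays for 5 of them, Ier3 being the exception, as for 16% of the 6145. Egr1 was at 0.17 ± 0.39 and did not pass, with 53.0 ± 28.7 at E18.5 and 63.7 ± 46.3 at term. Klf6 no longer passed without F, without H or with all arrays in 1 fit, and Ier3 no longer without G, without H or in that fit. The time comparisons of the genotypes share no array with each other, while each shares its term arrays with the term comparison.

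The difference between the 2 genotype comparisons, term minus E18.5, was -1.91 ± 0.49 for Egr1, -0.95 ± 0.39 for Ier2, -0.93 ± 0.48 for Klf4, -0.78 ± 0.54 for Klf6, -0.68 ± 0.54 for Nr4a1 and -0.67 ± 0.38 for Egr2 (log2, SE). This difference holds the term arrays that chose the genes, so no p is given for them; over all probe sets 0 of 6405 (0%) passed in limma. For Nr4a1 it was -1.14 without H, -0.12 without F and -0.19 without a pseudocount, and for Klf4 -1.45 without P and -0.49 without N.

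The 6 term arrays did not order alike for all genes. O or N was highest for Egr1, Egr2, Nr4a1, Nr4a2, Klf2, Klf4 and Ier2, and P for Klf3, Klf6 and Ier3. F was lowest of the 6 for Egr1, Egr2, Nr4a1, Klf4 and Ier2, and lowest of the (-/-) arrays for 7 of the 10 genes, while P was lowest of the (+/+) arrays for 7. Averaged over the 10 genes, the log2 distance from the mean of the E18.5 (+/+) arrays was 0.63, 1.23 and 1.04 on F, G and H, and 1.57, 1.68 and 1.28 on N, O and P. Among the 6 genes that passed over time in (+/+) lungs, the correlation of log2 signals between genes had a median of 0.62 over the 6 term arrays (-0.67 to 0.91, 11 of 15 pairs above 0) and of 0.12 over the 10 E18.5 arrays. Of these genes, Egr1, Nr4a1 and Klf2 were below the signal filter in the E18.5 comparison, so the medians of the times cannot be compared. The arrays of a time span both genotypes and, at term, a wide range of GAPDH ratios, and no p was computed.

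The arrays with a high GAPDH ratio were also those with high signals of several of these genes. Within each genotype, G, and N and O, exceeded the other term arrays for Egr1, Egr2, Klf2, Klf4 and Ier2. Over the 6 term arrays the correlation with the log2 GAPDH ratio was 0.83 for Ier2, 0.78 for Egr2, 0.74 for Klf2, 0.57 for Klf4, 0.56 for Egr1, 0.20 for Nr4a1, -0.09 for Ier3, -0.60 for Klf3 and -0.79 for Klf6 (description, n = 6). With the ratio as a covariate the term difference was -1.59 for Egr1, -1.39 for Nr4a1, -0.67 for Klf4 and -0.52 for Ier2, and the genes that passed over time in each genotype were those that passed without it.

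**Figure D4:**
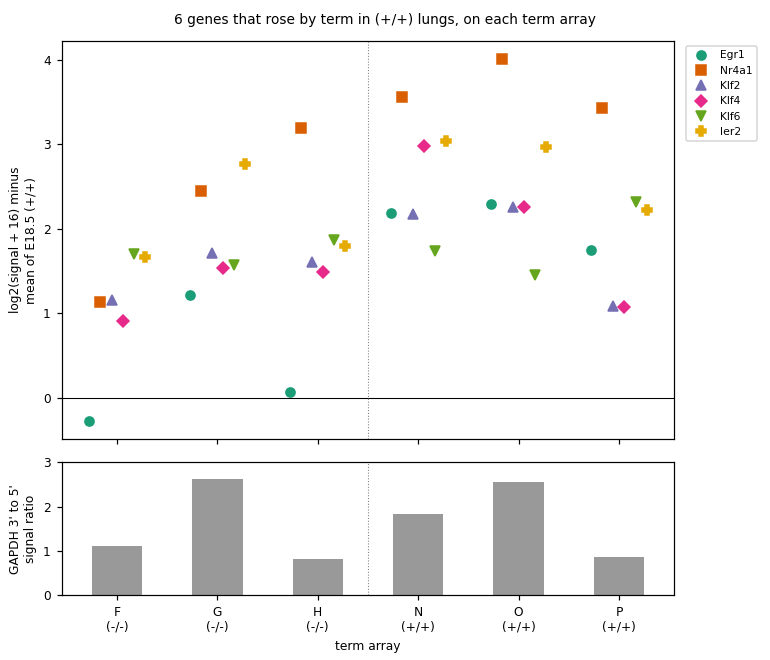
Upper panel: log2(signal + 16) on each term array minus the mean of the E18.5 (+/+) arrays, for the 6 genes that passed over time in (+/+) lungs. Lower panel: ratio of the 3′ to the 5′ GAPDH signal on the same arrays, 2.63 on G, 1.84 on N and 2.55 on O against 0.827 to 1.11 on the others; Egr1 on F and H lies at the E18.5 level.

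Markers of other cell types were read beside these values. Neutrophil markers summed to 555.3 to 708.8 on term (-/-) and 712.0 to 1211.1 on term (+/+) arrays (7 of 7 on the array, none at 0, Mpo below the filter on all arrays). N and O had the highest neutrophil sums, 1211.1 and 1130.8, and P, the lowest (+/+) array for 7 of the genes, 712.0. Endothelial markers (9 of 9, none at 0) summed to 3949.5 to 4080.4 on term (-/-) and 3343.5 to 3664.7 on term (+/+) arrays and 1823.8 to 3867.8 at E18.5, while Klf2, an endothelial factor, was 61.0 ± 15.0 and 86.6 ± 39.4 in the term groups. Macrophage markers (7 of 7, none at 0, Adgre1 below the filter) were 1901.2 to 2862.1 and 2367.4 to 2967.2 at term. Erythroid markers (4 of 6, none at 0) summed to 12518.1 to 30640.0 at E18.5 and 6539.4 to 10849.6 at term. Heart markers (6 of 6, none at 0) ranged from 798.5 to 14003.8 over all arrays, with 11293.4 on F, the lowest term array for 5 of the genes. The part of neutrophils, endothelium, red cells and heart tissue in the results was not tested.

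Of 2 further lists of immediate early genes, most of those above the filter passed upward by term. Both lists were chosen with earlier results of these data known. Gadd45a, Ccn1 and Plaur, of the second list, were below the filter at E18.5. For these reasons the counts of both lists are a description and no result. Of 9 AP-1 genes, which encode the subunits of the factor that pairs Fos with Jun proteins, 8 were above the filter, and 5 passed upward in (+/+) lungs, where 10.7% of all probe sets did, with a median change of 1.47 against -0.04 over all tested. Fos changed by 5.03 ± 0.28, from 58.6 ± 22.1 to 2336 ± 132, Junb by 3.31 ± 0.42, Atf3 by 3.30 ± 0.34, Jun by 1.99 ± 0.26 and Fosb by 0.95 ± 0.26. Jund (-0.43 ± 0.34) and Fosl2 (-0.30 ± 0.31) did not pass. In (-/-) lungs 5 passed upward, where 13.8% of all did, and Jund downward (-0.69 ± 0.22). There Fos changed by 3.41 ± 0.41, to 892 ± 673, Atf3 by 2.68 ± 0.29, Junb by 2.23 ± 0.37 and Jun by 1.36 ± 0.28. At term none of the 8 passed between the genotypes. Their median difference was -0.56 against 0.01, with 6 below 0. For Fos (-1.66 ± 0.47) and Fosb (-0.64 ± 0.23) all (-/-) arrays lay below all (+/+) arrays, as for 1.9% of all probe sets tested.

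A list of 33 further immediate early genes had 30 on the array and 25 above the filter over time. In (+/+) lungs 16 of the 25 passed upward and none downward, against 10.7% upward over all probe sets, with a median of 1.55. Among those that did not pass was Btg2 (0.41 ± 0.31). Dusp1, the phosphatase that shuts off MAP kinases, changed by 3.76 ± 0.28, Ccn1, a matrix protein induced by stretch, by 3.51 ± 0.25 and Sgk1, a kinase that raises sodium uptake, by 3.09 ± 0.40. In (-/-) lungs 17 of 25 passed upward, against 13.8% over all, with a median of 1.05, and these 3 genes changed by 2.84 ± 0.28, 2.47 ± 0.22 and 2.08 ± 0.29. At term 0 of the 25 passed between the genotypes, where 0 of 5831 (0%) did over all probe sets. Of the 25, 22 lay below 0, with a median of -0.23 against 0.01 over all tested, and 3 had an unadjusted limma p under 0.05. The share of all probe sets is not given for these last counts, and nothing is read from them. Ccn1 was 204 ± 51.1 in (-/-) and 561 ± 47.8 in (+/+) lungs (-1.42 ± 0.26, limma adjusted p = 0.846) and Dusp1 1279 ± 224 and 2071 ± 364 (-0.69 ± 0.25). For both, all (-/-) arrays lay below all (+/+) arrays, as for 1.9% of all probe sets tested. The paper, which calls Ccn1 Cyr61, reports that other methods did not bear out its lower array mRNA. It also reports more Cyr61 protein in lungs without T1α. For Egr1, Nr4a1, Fosb and Dusp1, by contrast, the paper reports lower mRNA at term both on the arrays and by real-time RT-PCR. At E18.5 none of the 22 above the filter passed.

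The other members of these families gave no call. Of 17 other Egr, Nr4a, Klf and Ier genes and Egr corepressors, 9 were on the array and 6 above the filter. Of these 6 (Klf5, Klf9, Klf10, Klf13, Nab1 and Nab2), 0 passed in any of the 5 comparisons. In (-/-) lungs over time 1 had an unadjusted limma p under 0.05. No share of all probe sets is given beside that count, and nothing is read from it. Klf13 changed by 0.66 ± 0.32 in (+/+) and 0.56 ± 0.22 in (-/-) lungs, Klf5, a factor of lung epithelium, by -0.03 ± 0.37 and -0.04 ± 0.29, Klf10 by -0.01 ± 0.27 and 0.00 ± 0.22, and Nab1 by 0.16 ± 0.26 and -0.07 ± 0.22. Of 18 kinases and factors upstream of the serum response, 11 were on the array and 4 or 5 above the filter. Map2k1, which encodes the ERK kinase MEK1, was higher at term in both genotypes (1.80 ± 0.28 and 1.34 ± 0.21), and Map2k2, encoding MEK2, lower in (-/-) lungs (-0.84 ± 0.21, against -0.65 ± 0.25 in (+/+), which did not pass). None of the list passed between the genotypes at either time.

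Of 8 known targets of Egr1, 7 were above the filter at term. F3, which encodes tissue factor, changed by 2.69 ± 0.36 in (+/+) and 1.85 ± 0.29 in (-/-) lungs, and Tgfb1 by 1.87 ± 0.37 and 1.62 ± 0.38. These 2 of the 7 passed in both genotypes, where 10.7% of all probe sets did so upward in (+/+) and 13.8% in (-/-) lungs. Tgfb1 was below the filter at E18.5, and the count is no result. A part of Egr1 in these changes was not tested. Between the genotypes at term none of the 7 passed, with F3 at -0.71 ± 0.34 and Tgfb1 at 0.31 ± 0.47. Cdkn1a, which encodes p21, was at 0.16 ± 0.42 (207 ± 70.6 in (-/-) and 200 ± 125 in (+/+) lungs). The paper reports lower p21 mRNA on northern blots and less p21 protein in term (-/-) lungs. It also states that p21 was not detected as present on its arrays, so the array value does not decide this. Of 7 targets of Klf2 and Klf4, 4 were above the filter and 0 passed in any comparison. An unadjusted limma p under 0.05 was found for 2 over time in (+/+) lungs, 1 at E18.5 and 1 in the difference of the genotype comparisons. No share of all probe sets is given beside these counts, and nothing is read from them.

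**Figure D5:**
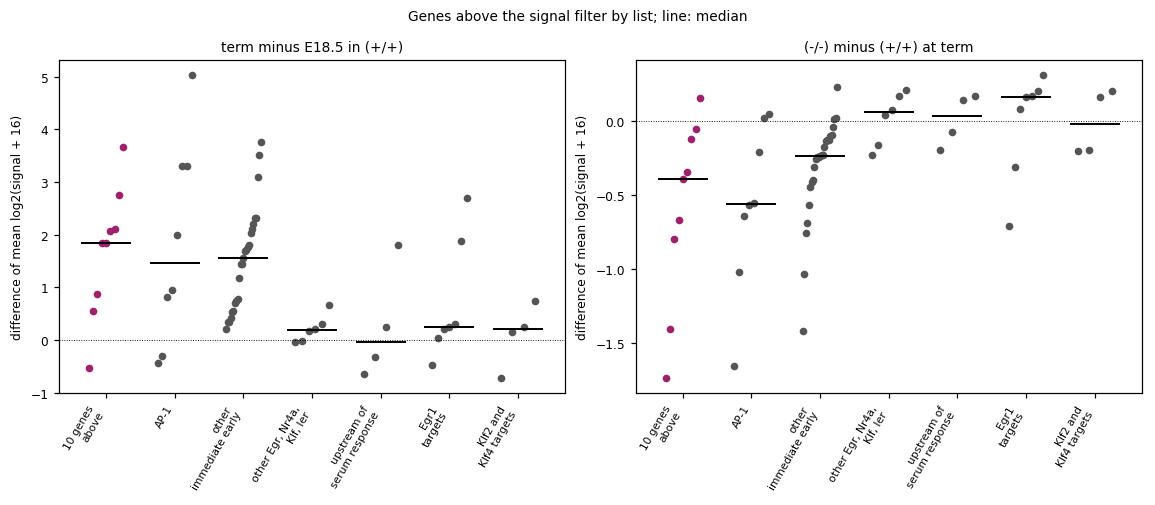
Difference of mean log2(signal + 16) of each gene above the signal filter (points) by list, with the median (line): change from E18.5 to term in (+/+) lungs (left) and (-/-) minus (+/+) at term (right); pink points are the 10 genes at their main probe set. The AP-1 genes have medians of 1.47 and -0.56, and the other immediate early genes of 1.55 and -0.23.

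The genes whose signals ran most like those of Egr1 over the 16 arrays were Plpp1 (r = 0.85), Cradd (0.81), Dusp6 (0.80), Fos (0.79), Cbfa2t2 (0.78), Ifngr2 (0.77), Ccni (0.77) and Socs3 (0.76). They were the 8 genes with the highest Pearson correlation of log2 signals, counting probe sets of 1 symbol among the 6405 above the filter and leaving out the 10 genes. Fos, Dusp6 and Socs3 are themselves immediate early genes, and Dusp6 encodes the phosphatase that dephosphorylates ERK. Within the 6 term arrays their r was 0.74 to 0.96, with 0.96 for Fos, and within the 10 E18.5 arrays 0.13 to 0.84, with 0.34 for Fos. Without N and O, which lie farthest from the median of Egr1, r over 14 arrays was 0.48 to 0.73. The 16 arrays span both genotypes and both times, so that these correlations hold the differences between groups.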

How the data were processed

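RNA of 16 mouse lungs was measured on Affymetrix U74Av2 arrays. The deposited values are signals that the authors made with Microarray Suite 5.0 from the probe pairs of each set and scaled so that each array has a trimmed mean near 100.04 to 100.06 (2% left out at each end); detection p-values were not used here. The number of arrays limits the precision. Of 12488 probe sets, 66 controls were left out; 10833 have 1 symbol, 396 several and 1193 none. limma 3.58.1 in R 4.3.3 was fitted to log2(signal + 16), within the groups compared (all 4 groups for the difference of the genotype comparisons), with an intensity trend, on probe sets whose median in at least 1 group exceeded the signal that 45% of values exceed (54.3 at E18.5, 48.7 at term). Benjamini-Hochberg adjustment covered every probe set tested. Differences understate changes of low signals. The fit was tested on simulated data. Main probe sets are those of the highest mean. Promoters are RefSeq windows. The 10 genes, the gene lists and the marker lists were chosen with earlier results of these data known. Named genes are the 10, T1α, list members and the 8 probe sets most like Egr1. Alternatives were other scalings, pseudocounts, filters, weights, variance models, a GAPDH covariate, the methods' t-test and leaving out each array.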

Additional observations from a re-analysis of the deposited data

Results flagged for a closer look

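Among the 28 sets of E18.5 signals checked, 1 for each probe set and genotype, 3 held an array far from the other 4; chance alone sets apart about 1 group in 20. Nr4a1 was 3.4 on E18.5 (-/-) replicate A against 31.3 to 36.0 on the other 4 arrays. Klf2 was 33.5 on E18.5 (+/+) replicate I against 5.7 to 9.2, and array I also had the highest signal of the unspiked bacterial probe sets. Ier3 was 2132.2 on E18.5 (+/+) replicate K against 373.9 to 618.8.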

How the results depend on the processing

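The counts of the 10 genes that passed kept within 1.5 times of their value under each alternative: 0 between the genotypes at E18.5, at term and for their difference throughout, 5 to 7 over time in (+/+) lungs (5 without N, 7 without K) and 4 to 7 in (-/-) lungs. In (-/-) lungs the count was 4 to 6 without 1 array, 4 with all arrays in 1 fit and 7 with array weights. Ier3 at E18.5 turned sign on the signal scale of the methods' t-test (-0.26) and spanned -0.12 to 0.49 without 1 array; the other Klf3 probe set spanned -0.0052 to 0.14. Second probe sets were opposite in sign to the main ones in some comparisons only. The sign was the same for Egr1 over time in both genotypes, and for Klf3 at term and over time in (-/-) lungs. It was also the same for Nr4a2 at term and over time. The sign differed for Nr4a2 at E18.5 (0.23 on the main set, -0.47 on the other) and in the cases that follow. The low set of Egr1 gave -0.12 at E18.5 and 0.12 at term, and the low set of Klf4 -0.36 at E18.5, 0.03 at term, -0.48 over time in (+/+) and -0.086 in (-/-) lungs. The second set of Klf3, whose group means of 78.9 to 90.5 were near those of the main set, gave 0.057 at E18.5 and 0.10 over time in (+/+) lungs. The cause was not tested. The low signals of Egr1, Nr4a1 and Klf2 at E18.5, of which those of Klf2 were near background, make their fold over time depend on the pseudocount. For Klf2 in (+/+) lungs it was 3.02 without one and 0.95 with 64 (log2). No paired analysis was possible because the litter of the lungs is not given in the sources used here.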
